A study of Homo sapiens with 4 samples.

Results

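The nuclear factor kappa B (NF-kB) pathway and its secreted products were examined in T24 cells, a human line grown from a bladder carcinoma, after knockdown of NSUN2. The set holds 34 genes named by symbol: subunits and inhibitors of NF-kB, receptor and adaptor genes, chemokines, cytokines and other genes that NF-kB is known to switch on. Each symbol was matched to 1 row of the 62893 genes in the count table, 33 through a table of current gene names and SOD2 through the GENCODE release 29 annotation. The rule matches symbols alone, but the list of symbols was drawn up with earlier results of these data known.

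NF-kB factors are dimers of Rel-family proteins that inhibitor proteins of the IkB family hold in the cytoplasm. Signals from tumour necrosis factor, interleukin 1 or Toll-like receptors lead a kinase complex to mark IkB for destruction, and the freed dimers enter the nucleus and switch on genes of inflammation, survival and adhesion. The genes they switch on include IkB and the ubiquitin-editing protein A20, so that the pathway limits itself. A second branch processes the NFKB2 precursor and acts through RELB. Bladder carcinoma cells are known to secrete chemokines and growth factors of this kind, such as interleukin 8 and interleukin 6.

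In one group the cells carried siRNA against NSUN2 (siNSUN2), which encodes a methyltransferase that makes 5-methylcytosine in RNA, and in the other group control siRNA (siControl). Each group had 2 libraries of poly(A) RNA, with 92640839 and 33633249 counts in siNSUN2 replicates 1 and 2 and with 42298529 and 215936965 counts in siControl replicates 1 and 2. One cell line was used. The sources used here do not state the siRNA sequences or the time after transfection, and nothing says that replicates were separate cultures, so that p-values measure only the spread between these libraries.

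Values are CPM, counts divided by the library's total and scaled to a common size, with totals adjusted by TMM factors (trimmed mean of M values). NSUN2 itself stood at 29.6 and 30.1 CPM in the siNSUN2 libraries, against 280.8 and 284.3 CPM in the siControl libraries, a log2 fold change of −3.24 (SE 0.043). Of the keratin and vimentin genes listed for T24 cells, KRT8 had 459 and 466 CPM in siNSUN2 libraries and 471 and 511 CPM in siControl libraries, whereas KRT19 had at most 3 counts in any library. KRT7 and VIM rose as counted, and KRT8 and KRT18 did not pass. A correction of each library for its trends with transcript GC content and length changed these values. With it, KRT7, KRT8 and KRT18 were lower (log2 fold changes −0.24, −0.20 and −0.38) and VIM was higher (0.65). As counted, the 5 genes summed to between 2864 and 2967 CPM in siNSUN2 libraries and between 2202 and 2304 CPM in siControl libraries. Markers of other cell types were scarce. The 12 leukocyte markers summed to 2.00 and 4.32 CPM in siNSUN2 libraries and to 1.51 and 1.12 CPM in siControl libraries, and of the 2 that could be tested none was called. The 5 endothelial markers summed to 2.54 and 11.1 CPM in siNSUN2 libraries, against 0.635 and 0.404 CPM in siControl libraries. The identifier matched to PECAM1 had 0 counts in all libraries, and whether the annotation used for the counts lists PECAM1 under it is not known here. VWF had 1.80 and 8.73 CPM in siNSUN2 libraries, against 0.165 and 0.113 CPM in siControl libraries. The 2 tested, VWF and CDH5, had log2 fold changes of 5.32 and 1.71 (SE 1.35 and 0.656), and neither was called. The 6 fibroblast markers summed to between 3.15 and 3.53 CPM in siNSUN2 libraries and between 1.04 and 2.61 CPM in siControl libraries. Of the 2 tested, COL1A1 was higher (log2 fold change 1.28), but it was not called with the GC and length correction (0.77). COL1A2 had a log2 fold change of −1.39 and was not called. COL3A1, not tested, had 0 and 0 counts in siNSUN2 libraries and 1 and 115 counts in siControl libraries.

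Most of the expressed members were higher after NSUN2 knockdown. Of the 34 genes, 25 rose, 2 fell, 2 did not pass the test and 5 had rows with too few counts to be tested. The test was edgeR's quasi-likelihood F-test over 16889 genes, called at a Benjamini-Hochberg adjusted p under 0.05. Over all these genes 52.6% were called, 27.1% as higher and 25.5% as lower. As many as 10 members, or 34.5% of the 29 tested, rose by 2-fold or more, against 5.5% of all genes. Groups did not overlap in CPM for 28 of the 29 tested members, against 74.6% of all genes. The median log2 fold change of the 29 was 0.89, against 0.03 for all genes tested. These figures describe the 29 genes that passed the filter on low counts, and CCL2 and IL1B passed it only through their siNSUN2 libraries. Among the 24 members with a mean of at least 5 CPM, 22 rose and 2 fell. Of all 10388 genes with such a mean, 7734 were called in either direction.

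**Figure D1:**
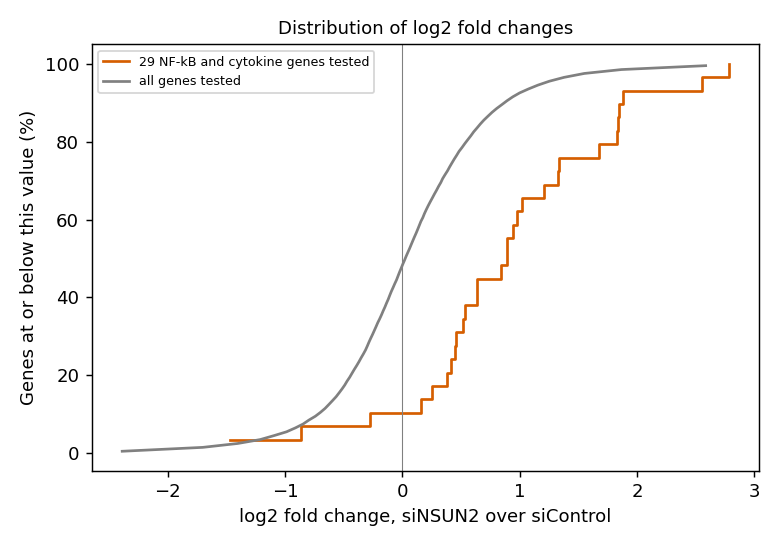
Cumulative share of genes (vertical axis, percent) at or below each log2 fold change, siNSUN2 over siControl (horizontal axis), for the 29 tested members and for all 16889 genes tested. The members' curve lies to the right of that of all genes over most of its range, with medians of 0.89 and 0.03, and SOD2 and NFKB1 form its lower end.

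**Figure D2:**
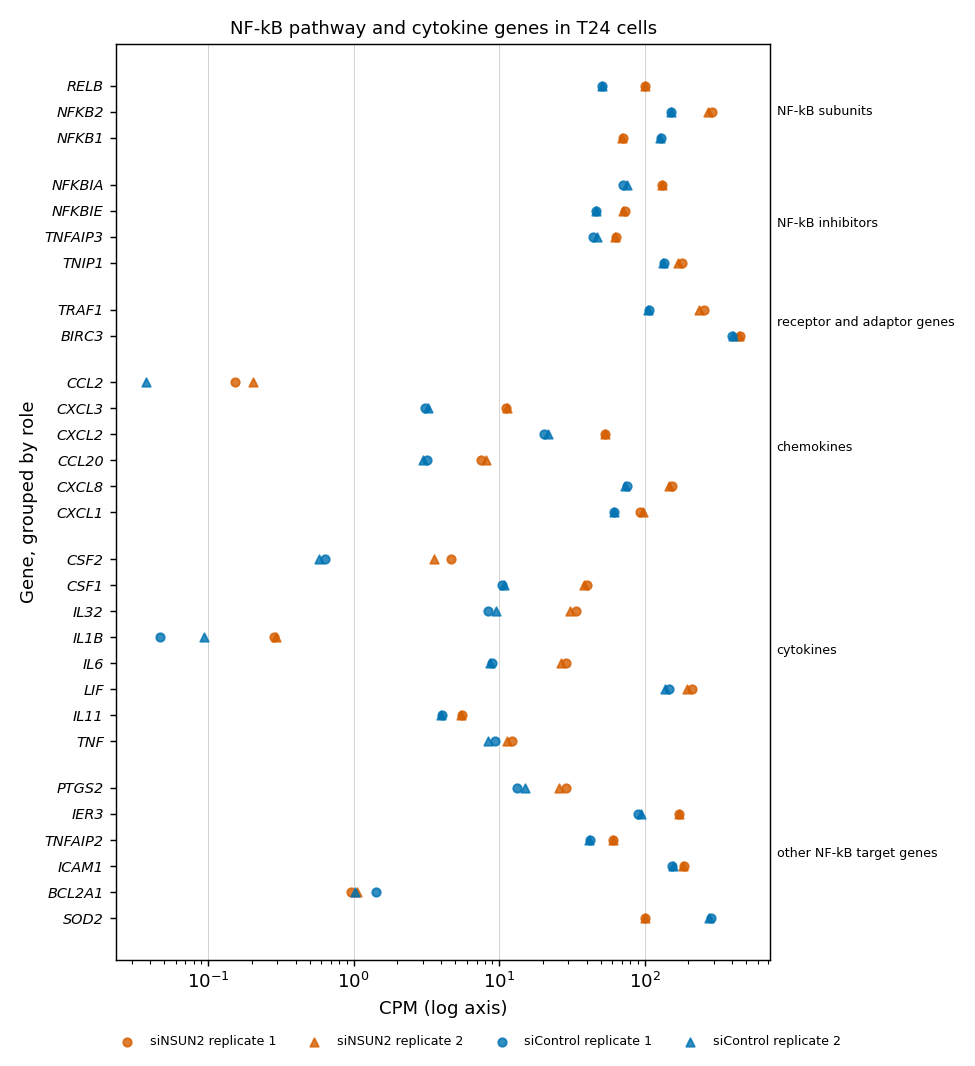
CPM of the 29 tested members (horizontal log axis) in each library, grouped by role, with siNSUN2 libraries in orange and siControl libraries in blue. CCL2 had 0 counts in siControl replicate 1, a point that a log axis cannot show. Replicates lie close together for most genes, orange points lie right of blue ones except for NFKB1, SOD2 and BCL2A1, and only BCL2A1 overlaps between the groups.

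The spread between replicates was small beside most of these differences. Over the 27 tested members with at least 20 counts in every library, the higher replicate exceeded the lower by a median factor of 1.04 and at most by a factor of 1.40. In CPM per kilobase of the longest annotated transcript, IER3 was the most abundant member in siNSUN2 cells, at 127, and CXCL8, CXCL1, BIRC3, NFKBIA and NFKB2 followed at 88.3, 87.3, 86.7, 84.0 and 82.2. In siControl cells BIRC3 was the most abundant, at 77.8, and IER3 followed at 68.5.

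The subunit genes moved in opposite directions. NFKB1 (ENSG00000109320), which encodes p105, the precursor of the p50 subunit, had 71.3 and 69.5 CPM in siNSUN2 libraries, against 129 and 127 CPM in siControl libraries. NFKB2 (ENSG00000077150), which encodes p100, the precursor of p52, had 289.6 and 271.9 CPM in siNSUN2 libraries and 151 CPM in both siControl libraries. RELB (ENSG00000104856), the partner of p52 in the second branch of the pathway, had 101 CPM in both siNSUN2 libraries, against 51.1 and 51.0 CPM in siControl libraries. Thus NFKB1 fell and its paralog NFKB2 rose, with RELB, and in none of the 3 did the groups overlap. NFKB1 fell by 0.86 on the log2 scale (SE 0.041, adjusted p = 3.39e-07), while NFKB2 and RELB had log2 fold changes of 0.90 and 0.98 (SE 0.043 and 0.040, adjusted p = 3.67e-07 and 1.52e-07). Both rises went with high GC content of the transcripts, 62.4% and 65.4%, and shrank to 0.35 and 0.31 once each library was corrected for its trends with transcript GC content and length, whereas the fall of NFKB1 was −0.88 with them off.

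All 4 inhibitor genes rose, by 1.30-fold to 1.79-fold. NFKBIA (ENSG00000100906), which encodes IkB alpha, the main cytoplasmic inhibitor, had 131 CPM in both siNSUN2 libraries, against 70.8 and 75.4 CPM in siControl libraries (log2 fold change 0.84, SE 0.045, adjusted p = 6.32e-07). NFKBIE, which encodes IkB epsilon, had 73.8 and 70.7 CPM in siNSUN2 libraries and 46.6 and 46.2 CPM in siControl libraries (0.64, SE 0.043). TNFAIP3, the gene of A20, had 63.6 and 62.9 CPM in siNSUN2 libraries, against 44.4 and 47.4 CPM in siControl libraries (0.46, SE 0.047). Within each group these 3 genes varied far less than between the groups. TNIP1, which encodes an A20-binding protein, had 179.6 and 170.1 CPM in siNSUN2 libraries and 135.8 and 133.3 CPM in siControl libraries (0.38, SE 0.043). The rises of NFKBIA and TNFAIP3 were 0.77 and 0.46 with GC and length trends taken off, against 0.18 for NFKBIE and −0.0029 for TNIP1, whose call was lost (adjusted p = 0.955).

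Among receptor and adaptor genes, TRAF1 (ENSG00000056558), an adaptor of tumour necrosis factor receptors, had 256 and 236 CPM in siNSUN2 libraries, against 107 and 106 CPM in siControl libraries. Its log2 fold change was 1.21 (SE 0.047, adjusted p = 1.27e-07). The ubiquitin ligase gene BIRC3, which encodes cIAP2, had 456 and 445 CPM in siNSUN2 libraries and 402 and 407 CPM in siControl libraries. That difference, 0.16 on the log2 scale (SE 0.038, adjusted p = 0.00674), was the smallest rise called. Without siControl replicate 1 it was 0.08 and no longer called (adjusted p = 0.218), and with GC and length trends taken off it was 0.40. TLR2, a Toll-like receptor gene, was below the filter, with 7 and 2 counts in siNSUN2 libraries and 4 and 11 in siControl libraries.

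Of the 8 chemokine genes 5 rose, 4 of them 2-fold or more. The CXCL chemokines that rose attract neutrophils. CXCL8 (ENSG00000169429), which encodes interleukin 8, had 154 and 148 CPM in siNSUN2 libraries, against 75.2 and 73.2 CPM in siControl libraries (log2 fold change 1.02, SE 0.043, adjusted p = 1.75e-07). CXCL1 had 93.5 and 98.0 CPM in siNSUN2 libraries and 61.8 and 61.6 CPM in siControl libraries (0.63, SE 0.043). Neither gene's groups overlapped, and the same held for CXCL2 and CXCL3, close relatives of CXCL1. CXCL2 had 53.1 and 53.7 CPM in siNSUN2 libraries, against 20.5 and 21.8 CPM in siControl libraries (1.33, SE 0.052). CXCL3 had 11.2 and 11.4 CPM in siNSUN2 libraries, against 3.08 and 3.27 CPM in siControl libraries (1.83, SE 0.108, adjusted p = 1.03e-06). No test was made of whether the fold changes of these relatives differ. Their transcripts are alike in places: 5.73% of the 50-base words of the CXCL1 transcript, 9.24% of those of CXCL2 and 5.26% of those of CXCL3 occur in another of the genes counted, so that a part of their reads is of uncertain origin. CCL20, which attracts cells that carry the receptor CCR6, had 7.46 and 8.12 CPM in siNSUN2 libraries and 3.18 and 3.02 CPM in siControl libraries (1.33, SE 0.127).

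The rows matched to the other chemokine genes held counts near or at 0. CCL2, which attracts monocytes, had 14 and 7 counts in siNSUN2 libraries, against 0 and 8 counts in siControl libraries, and its log2 fold change of 2.56 (SE 0.997) missed the threshold (adjusted p = 0.0575). It passed with limma-voom, with no low-count filter and with the replicate number as a block (adjusted p = 0.0246, 0.047 and 0.0318). CXCL10, a target of interferon as well as of NF-kB, had 1 count in siNSUN2 replicate 2 and 0 in the other libraries. A count of 0 allows up to 3 counts, or 0.0139 to 0.0892 CPM depending on the library, counting error only. The identifier matched to CCL5 had 0 counts in every library. Whether the annotation used for the counts lists CCL5 under that identifier is not known here, so no level of CCL5 is given.

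The promoters of CXCL1, CXCL2 and CXCL3 are shown with that of TNFAIP3 because they hold, in genes that rose, the kind of DNA word that NF-kB is known to bind. The kappaB consensus was searched on both strands: GGG, a purine, any 2 bases, 2 pyrimidines and CC, in the 250 bases before and 50 bases after the start of each gene in RefSeq on build GRCh38.p14. The stretches below are the 120 bases before the start, 5′ to 3′ on the gene's strand, with matches in capitals. The coordinates are of GRCh38.p14, not of the build of the counts.
CXCL1 (chr4:73869273-73869392, plus strand): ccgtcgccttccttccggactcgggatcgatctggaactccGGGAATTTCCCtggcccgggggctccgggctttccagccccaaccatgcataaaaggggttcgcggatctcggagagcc
CXCL2 (chr4:74099196-74099315, minus strand): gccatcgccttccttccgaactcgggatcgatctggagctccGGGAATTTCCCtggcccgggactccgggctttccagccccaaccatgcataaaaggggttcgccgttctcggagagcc
CXCL3 (chr4:74038690-74038809, minus strand): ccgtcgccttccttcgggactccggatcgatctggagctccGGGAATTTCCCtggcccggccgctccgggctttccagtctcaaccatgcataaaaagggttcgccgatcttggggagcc
TNFAIP3 (chr6:137867139-137867258, plus strand): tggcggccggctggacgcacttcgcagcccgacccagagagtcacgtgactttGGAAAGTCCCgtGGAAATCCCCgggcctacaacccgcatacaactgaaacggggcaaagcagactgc
In the chemokine genes the capitals are the same run of letters, which reads as a match on each strand, and it begins 79, 78 and 79 bases before the start of CXCL1, CXCL2 and CXCL3. TNFAIP3 has a pair of matches on the opposite strand, the first base of each 67 and 55 bases before the start. Promoters were listed for 27 members, and 14 of these (51.9%) held at least 1 match, against 13.3% of all 27305 genes with a listed promoter. The 14 include CXCL10 and LTB, which were not tested. Among tested members 12 had a match and 11 had none, to set beside 17.3% with a match of the 11049 tested genes with a listed promoter. The promoter listed for CXCL8 held no match of these letters. Of the 12 tested members with a match, 11 rose, with a median log2 fold change of 0.87. Of the 11 tested members without one, 9 rose, with a median of 0.53. For comparison, 25 of all 29 tested members rose. The fold changes of all genes with and without a match were not compared, and whether a match goes with a rise was not tested. These counts leave out the 7 members with no listed promoter: NFKBIE, RELB, CCL2, CCL5, LIF, CSF1 and IER3. NFKB1, which fell, has a match and SOD2, which also fell, has none in its 4 listed promoters.

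Of the 10 cytokine genes 8 could be tested, and all 8 were called higher, 5 of them more than 3-fold. One of these 5, IL1B, passed the filter on low counts only through its siNSUN2 libraries, and LTB, with fewer counts in siNSUN2 libraries, was not tested, so that the count describes the genes that passed. CSF2 (ENSG00000164400), which encodes the granulocyte-macrophage growth factor GM-CSF, had 4.70 and 3.56 CPM in siNSUN2 libraries, against 0.635 and 0.578 CPM in siControl libraries. Its fold of 6.88 (log2 fold change 2.78, SE 0.227, adjusted p = 7.31e-06) was the largest of the members, and only 0.397% of all genes tested had a larger log2 fold change. CSF1, the macrophage growth factor gene, had 40.4 and 38.3 CPM in siNSUN2 libraries and 10.5 and 10.8 CPM in siControl libraries (1.88, SE 0.061, adjusted p = 6.12e-08). IL32, which encodes an inflammatory cytokine that mice lack, had 34.0 and 31.0 CPM in siNSUN2 libraries, against 8.45 and 9.55 CPM in siControl libraries (1.85, SE 0.081). None of these 3 genes overlapped between groups. Of the 50-base words of the IL32 transcript, 6.54% occur in another gene.

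The classic inflammatory interleukins, IL6 and IL1B, were among these 5. IL6 (ENSG00000136244), which encodes the inducer of the acute phase response, had 28.8 and 26.8 CPM in siNSUN2 libraries, against 8.87 and 8.60 CPM in siControl libraries (log2 fold change 1.68, SE 0.068, adjusted p = 1.49e-07). IL1B had only 26 and 10 counts in siNSUN2 libraries and 2 and 20 counts in siControl libraries. Per library size the groups did not overlap, at 0.283 and 0.292 CPM in siNSUN2 libraries and 0.0471 and 0.094 CPM in siControl libraries. Its log2 fold change of 1.84 (SE 0.658, adjusted p = 0.0415) was not called by DESeq2 (adjusted p = 0.156), in thinned libraries (adjusted p = 0.0972) or without any 1 of the 4 libraries (adjusted p between 0.114 and 0.188). IL1A had 0 counts in all libraries.

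The relatives LIF and IL11, which signal through the receptor subunit gp130 as IL6 does, had smaller fold changes. LIF had 211 and 196 CPM in siNSUN2 libraries, against 147 and 138 CPM in siControl libraries (0.51, SE 0.052), and 0.22 with GC and length trends taken off. IL11 had 5.52 and 5.46 CPM in siNSUN2 libraries and 4.07 and 3.99 CPM in siControl libraries (0.45, SE 0.129, adjusted p = 0.016). The groups of neither gene overlapped, but the call of IL11 was lost with DESeq2 (adjusted p = 0.0886), in thinned libraries (adjusted p = 0.0835), with the trends off (0.25, adjusted p = 0.143) and without any 1 library (adjusted p between 0.0585 and 0.105).

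The tumour necrosis factor genes were modest or low. TNF, the founding ligand of the pathway, had 12.2 and 11.3 CPM in siNSUN2 libraries, against 9.37 and 8.42 CPM in siControl libraries (0.41, SE 0.094, adjusted p = 0.00468). It narrowly missed the threshold without siNSUN2 replicate 1 (adjusted p = 0.055) and without siControl replicate 2 (adjusted p = 0.0558). LTB, which encodes lymphotoxin beta, a ligand of the second branch, had 1 and 2 counts in siNSUN2 libraries and 6 and 18 counts in siControl libraries, below the filter.

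Leukocyte and endothelial marker sums were higher in siNSUN2 libraries, and replicate 2 held more of them than replicate 1. LYZ had 4 and 53 counts and PTPRC 4 and 20 counts in siNSUN2 replicates 1 and 2. In siControl replicates 1 and 2, LYZ had 0 and 7 counts and PTPRC 0 and 4 counts. Not every marker went this way: in siNSUN2 replicates 1 and 2, CD68 had 0.207 and 0 CPM and CD8A 0.468 and 0.351 CPM. Summed over the 8 chemokine members, CPM came to 319 in both siNSUN2 libraries, against 163 and 164 in siControl libraries. Of the tested chemokine genes, CXCL1, CXCL2, CXCL3, CCL20 and CCL2 were higher in siNSUN2 replicate 2 than in replicate 1, and CXCL8 was lower. Of the tested cytokine genes, IL1B was higher in siNSUN2 replicate 2, and CSF2, CSF1, IL32, IL6, LIF, IL11 and TNF were higher in replicate 1. The part of such cells or reads in the members' values was not tested. In bulk RNA, a change in all cells and a change in a few of them cannot be told apart.

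The 3′ untranslated regions of cytokine mRNAs are known for AU-rich elements, which shorten the life of the mRNA. The core nonamer of these elements, ATTTATTTA in DNA letters, was counted in the longest 3′ UTR of each gene in GENCODE release 29. Windows of 30 bases from 3 members show where nonamers run together, in capitals.
CSF2: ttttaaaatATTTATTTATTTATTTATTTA
CXCL2: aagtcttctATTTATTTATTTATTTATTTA
TNF: tttattATTTATTTAttATTTATTTATTTA
The windows begin at bases 220, 137 and 466 of the 3′ UTR of CSF2, CXCL2 and TNF. They hold 4, 4 and 3 overlapping or adjacent nonamers, which are all that these 3′ UTRs have. A nonamer is present in 10 of the members, 34.5% of those tested, against 7.84% of the 12532 tested genes with an annotated 3′ UTR. They are CSF2, CXCL2, CXCL1, CXCL8, TNF, IL11, IL1B, BIRC3, PTGS2 and SOD2. Of these 10, 9 rose, with a median log2 fold change of 0.79, and 16 of the 19 tested members without a nonamer rose, with a median of 0.89. Over all tested genes the median was −0.05 for the 983 with a nonamer and 0.05 for the 11549 without.

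Of the 6 other target genes, 4 rose, 1 fell and 1 did not pass. SOD2 (ENSG00000112096), which encodes the mitochondrial superoxide dismutase, a well known NF-kB target, had 101 CPM in both siNSUN2 libraries, against 284 and 275 CPM in siControl libraries. It fell by 1.47 on the log2 scale (SE 0.040, adjusted p = 3.23e-08), the largest fall of the members, and by 1.40 with GC and length trends taken off. IER3, an early response gene that limits cell death, had 172 CPM in both siNSUN2 libraries, against 90.5 and 94.3 CPM in siControl libraries (0.89, SE 0.042). Both genes had replicates close together and groups that did not overlap, and they moved in opposite directions.

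PTGS2 (ENSG00000073756), which encodes the inducible cyclooxygenase COX-2, had 28.99 and 25.6 CPM in siNSUN2 libraries and 13.3 and 15.1 CPM in siControl libraries (0.94, SE 0.087, adjusted p = 4.15e-05). TNFAIP2, a gene induced by tumour necrosis factor, had 60.5 and 60.8 CPM in siNSUN2 libraries, against 42.4 and 41.6 CPM in siControl libraries (0.53, SE 0.043). ICAM1, the adhesion molecule that leukocytes bind, had 187 and 184 CPM in siNSUN2 libraries, against 155 and 157 CPM in siControl libraries (0.25, SE 0.039). The groups of these 3 genes did not overlap, but TNFAIP2 and ICAM1 were at −0.02 and −0.03 with GC and length trends taken off and were then not called (adjusted p = 0.75 and 0.507). BCL2A1, a survival gene of the BCL2 family, had 0.958 and 1.05 CPM in siNSUN2 libraries and 1.44 and 1.02 CPM in siControl libraries, and its log2 fold change of −0.28 (SE 0.289) did not pass (adjusted p = 0.467). Of the 50-base words of the transcripts of BCL2A1 and SOD2, 4.88% and 3.93% occur in other genes.

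**Figure D3:**
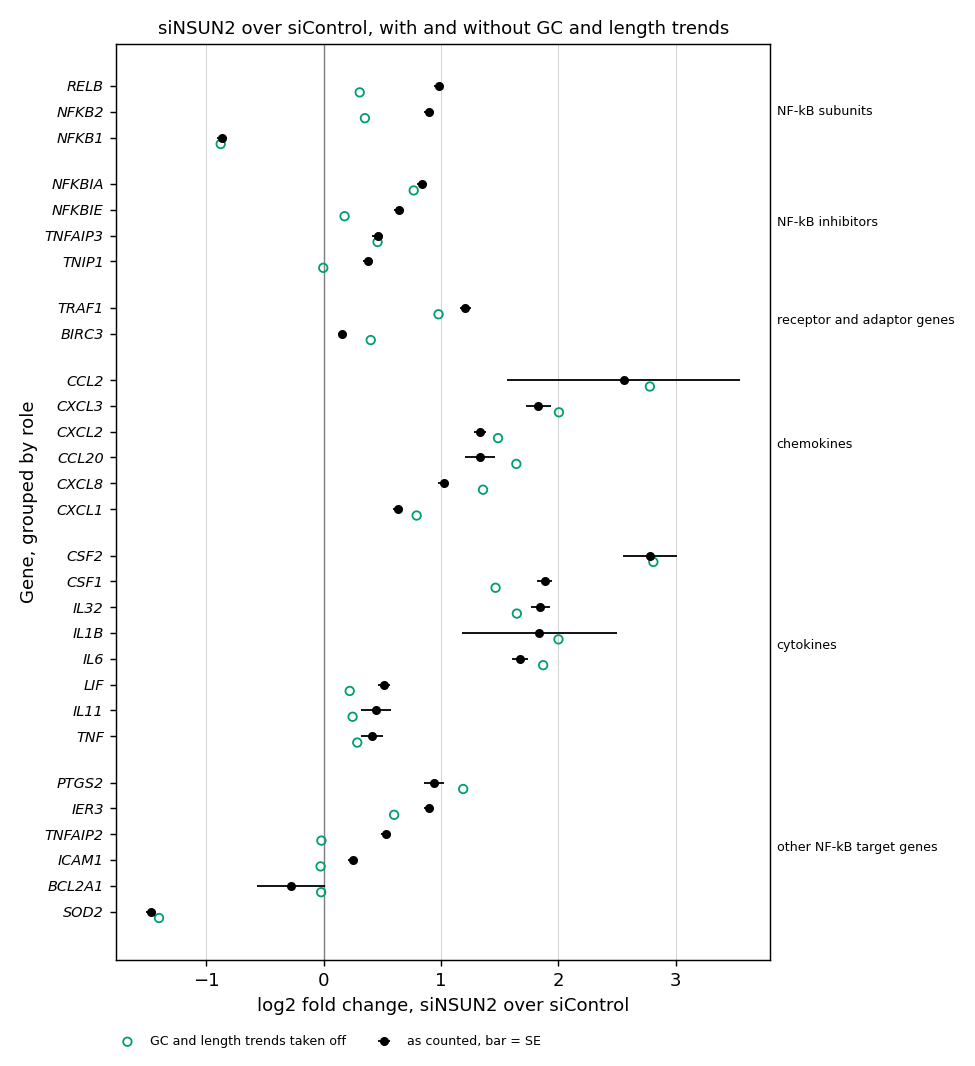
Log2 fold change, siNSUN2 over siControl (horizontal axis), of the 29 tested members by role, as counted (black, bars are the SE) and after each library's GC content and length trends were removed (green). CSF2 has the largest value at 2.78 and SOD2 the smallest at −1.47. The green points of RELB, NFKB2, NFKBIE, TNIP1, TNFAIP2, ICAM1, CSF1, IER3 and LIF lie well left of the black ones.

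GC content went with the fold changes of the whole table, as a measured fact whose part in each result was not tested. When the tested genes with a known transcript were divided into 10 equal bins by GC content, the lowest bin (median GC 37.0%) had a median log2 fold change of −0.24 and the highest (median GC 64.1%) one of 0.62. The members differed in how they lie beside this trend. The 12 tested members with GC content under 46%, which are the 6 tested chemokine genes, IL6, IL1B, PTGS2, BIRC3, BCL2A1 and SOD2, had a median log2 fold change of 1.18 as counted and 1.42 with the trends off. These medians include CCL2 and IL1B, which passed the filter on low counts only through their siNSUN2 libraries, so they describe the genes that passed. Among these 12, SOD2 fell, BCL2A1 and CCL2 did not pass and BIRC3 had the smallest rise called. The 11 with GC content of at least 55%, which are NFKB2, RELB, NFKBIE, TNIP1, TNFAIP2, ICAM1, IER3, LIF, IL11, CSF1 and IL32, had a median of 0.64 as counted and 0.25 with the trends off. CSF1 and IL32 were at 1.47 and 1.65 with the trends off. With the trends off, 21 of the 29 tested members were higher and 2 were lower.

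**Figure D4:**
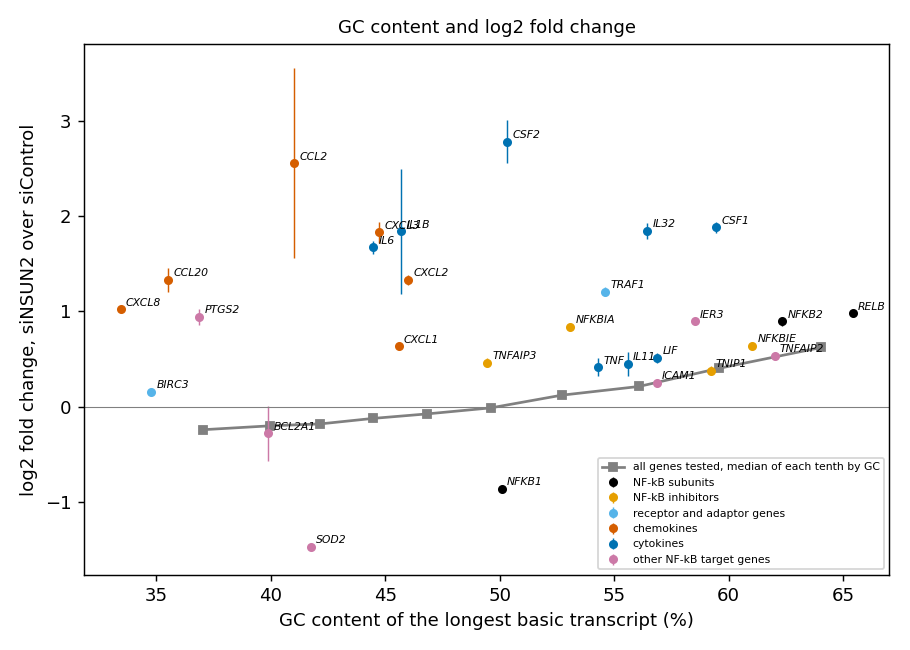
Log2 fold change, siNSUN2 over siControl (vertical axis, bars are the SE), of the 29 tested members against the GC content of the longest basic transcript in percent (horizontal axis), coloured by role, with the median of all tested genes in each of 10 bins in grey. The grey line rises with GC content, and the chemokine and interleukin genes at low GC lie far above it while TNIP1, ICAM1 and TNFAIP2 lie on or close to it and SOD2 and NFKB1 lie far below it.

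Other genes of the pathway, taken from lists drawn up by role, were mixed in direction. Of 28 tested receptors, adaptors and kinases, 14 were called higher, 6 lower and 8 neither (median 0.14 on the log2 scale). The shares of all genes tested, to set beside this list and those that follow, were 27.1% higher and 25.5% lower. Those with the smallest p were MAP3K14, the kinase NIK that starts the second branch, at 135 ± 3.09 CPM in siNSUN2 cells and 69.05 ± 0.401 CPM in siControl cells (SD, n = 2 each), and the receptor genes TNFRSF12A and TNFRSF1A (log2 fold changes 0.96, 0.86 and 0.93). With the trends off, MAP3K14, TNFRSF12A and TNFRSF1A moved to 0.56, 0.43 and 0.64. CHUK and IKBKB, the genes of the catalytic subunits of the IkB kinase, chosen for mention after their values were seen, had log2 fold changes of −0.16 and 0.15 (SE 0.061 and 0.060) and did not pass.

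Of 17 other subunit and inhibitor genes, 11 were called higher, 3 lower and 3 neither, with a median of 0.55, or 0.21 with the trends off. NFKBIZ, a nuclear IkB protein that acts as a cofactor for IL6 transcription, had 79.9 ± 0.421 CPM in siNSUN2 cells and 41.2 ± 0.768 CPM in siControl cells (0.96). RELA, the main activating subunit p65, had 135 ± 0.728 CPM in siNSUN2 cells and 86.3 ± 0.189 CPM in siControl cells (0.65, and 0.36 with the trends off). SHARPIN, part of the linear ubiquitin ligase, rose by 0.94 on the log2 scale, and by 0.21 with the trends off. With NFKB1 and REL, likewise chosen afterwards, lower (−0.86 and −0.54) and RELA, RELB and NFKB2 higher, all 5 Rel-family genes were called. Over all genes tested, 52.6% were called in either direction.

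Among 15 tested chemokine and cytokine genes outside the set, 6 were called higher, 1 lower and 8 neither, with a median of 0.48. TNFSF9, the ligand of the costimulatory receptor 4-1BB, had 55.7 ± 1.90 CPM in siNSUN2 cells and 20.3 ± 0.259 CPM in siControl cells (1.46, SE 0.051). It had the smallest p of this list, and the next by p were EBI3 at 0.97, or 0.64 with the trends off, and TNFSF15 at 0.83. CX3CL1, chosen for mention after its values were seen, had a larger log2 fold change of 1.84 (adjusted p = 0.031). It was not called with the trends off (1.59, adjusted p = 0.0582). CX3CL1 is among the 6 called higher, but it passed the filter on low counts only through its siNSUN2 libraries. It had 0.316 and 0.321 CPM there, against 0.0941 and 0.0846 CPM in siControl libraries. Of 16 genes for proteins that bind or degrade AU-rich mRNAs, 7 were called higher, 3 lower and 6 neither, with a median of 0.10. ZFP36, which encodes tristetraprolin, a protein that promotes decay of TNF and CSF2 mRNA, had 33.2 ± 0.905 CPM in siNSUN2 cells and 14.6 ± 0.0750 CPM in siControl cells (1.18), its relative ZFP36L1 had a log2 fold change of 1.08 and the decapping enzyme gene DCP2 one of 1.32.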

How the data were processed

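Poly(A) RNA libraries of T24 cells were made with a stranded kit and read as pairs, per the labels' protocols. The authors deposited raw counts per Ensembl gene; HISAT2, HTSeq and build hg19 are named in the submitters' processing notes. The sources used here state no versions, annotation or strand setting, so reads of overlapping or antisense genes cannot be told apart. The members and the other gene lists were chosen with earlier results of these data known. The rule for naming genes took every member and up to 3 called genes of each other list.

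Counts were tested with edgeR 4.0.16 in R 4.3.3 (glmQLFit robust, TMM factors between 0.985 and 1.02, filterByExpr by group, no covariate), two-sided. The filter kept 16889 of 62893 genes and 99.96% of the counts; 31524 genes had 0 counts in every library, and every row named a gene. SEs were derived from the F statistic. At these depths 1 CPM stands for 33.6 to 216 counts. Replicates differed by more than counting noise, with a chi-square over its degrees of freedom of 13.5 in siNSUN2 and 20.5 in siControl. Promoters came from RefSeq (GRCh38.p14); transcript length, GC content and 3′ UTRs came from GENCODE release 29, known for 96.4% of genes tested. GC and length trends were fitted per library by loess (span 0.3) and entered as offsets.

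The test was first tried on simulated data. The alternatives were DESeq2 1.42.0, limma-voom (limma 3.58.1), other scaling factors and filters, the replicate block, thinned libraries, each library left out, and the trends taken off. Python 3.11.15 with pandas 2.3.3 and matplotlib 3.10.9 made the tables and figures.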

Additional observations from a re-analysis of the deposited data

How the results depend on the processing

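The counts of 25 members higher and 2 lower stayed within 1.5 times under every alternative: 21 to 26 were higher and 2 were lower. The median log2 fold change of the tested members was 0.85 in libraries thinned to the shallowest total and 0.60 with GC and length trends taken off, and it lay between 0.79 and 0.91 with each library left out. Of 398 values of single members under 14 alternatives, 375 kept their direction and their side of the threshold, 17 were no longer called, 3 were newly called (CCL2) and 3 changed sign. The sign changes all came with the trends taken off, where TNFAIP2 was at −0.019, ICAM1 at −0.026 and TNIP1 at −0.0029; the cause was not tested. BIRC3 was also not called with no low-count filter (adjusted p = 0.0553). With the replicate block, 26 members were higher and 2 lower; same-numbered libraries deviated together only weakly (correlation 0.156 over 16889 genes), and only the number pairs them. The median of all genes moved by less than 0.1 on the log2 scale under each alternative. Leaving out a library leaves 1 sample in a group, which is then assumed to vary like the other group. Members under about 1 CPM are limited by depth.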

Other observations

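MIF, the gene of a macrophage migration inhibitory cytokine, was chosen for mention after its values were seen. It differed more within the groups than between them, at 87.5 and 6.02 CPM in siNSUN2 replicates 1 and 2 and at 3.95 and 34.3 CPM in siControl replicates 1 and 2, and it was not called.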
